A study of Homo sapiens with 19 samples.

Results

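The 8 genes GATA1, KLF1, NFE2, EPOR, ITGA2B, GP1BA, PF4 and HBG1, which serve the red cell and platelet lineages, were examined in cells of the leukaemia line MOLM-13 given Corin or the vehicle DMSO. They were taken as a given list from the 20007 protein-coding genes of GENCODE release 44 (hg38), by name, with earlier results of these data known. For each gene the length of sequence lying under called peaks within 10 kb either side of its transcription start site (TSS) was summed in each library, and is called covered bp here. GATA1, PF4 and HBG1 had 0 covered bp in all 12 libraries, with Corin or without it. The windows of NFE2, EPOR, KLF1 and GP1BA held peaks of all 3 marks, though at KLF1 and GP1BA none lay within 1 kb of their own TSS, and the window of ITGA2B held H3K4me2 alone. NFE2 had 2.44 times the H3K27ac coverage after Corin, a difference in bp larger than that of all but 23 of 10528 genes. NFE2 was already among the most covered genes with DMSO. EPOR had 998 bp of H3K4me3 within 1 kb of its TSS in each Corin library against 0 and 11 bp in the DMSO libraries. In Corin replicate 2 the EPOR peak there was a weak one. In the test across all genes with coverage (limma, adjusted p under 0.05) no member passed. With a stricter filter on low values NFE2 passed in H3K27ac, where 436 genes were called higher in place of 0.

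MOLM-13 is an established human acute myeloid leukaemia line of monocytic character. The cells received either 0.1 µM Corin, which blocks LSD1 together with the deacetylases bound in the same CoREST complex, or the vehicle DMSO, for 24 h. The labels repeat the 0.1 µM value for the DMSO libraries, where what it refers to is not said. Both groups were the same line without further genetic change named in the labels, and 1 line stands for the disease here. CUT&RUN, in which an antibody guides a nuclease that cuts out marked chromatin, was run for H3K27ac (active promoters and enhancers), H3K4me2 (promoters and enhancers, and a substrate of LSD1) and H3K4me3 (mostly promoters), with 2 libraries for each mark and treatment. Of 19 libraries, 12 were used. Not analysed here were 7 libraries: 4 of cells that received ATRA (all-trans retinoic acid) as well as Corin, 1 for LSD1 itself and 2 for IgG. No IgG background therefore stood beside these values.

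Red cells and platelets arise from a shared progenitor under GATA1, which works with TAL1, LMO2 and LDB1. KLF1 then drives the erythroid programme, while NFE2 serves late megakaryocytes and globin expression. GFI1B, a transcriptional repressor active in both lineages, recruits LSD1 and CoREST to its targets. There LSD1 strips methyl groups from histone H3 and the deacetylases remove acetyl groups. Monocytic cells do not normally make haemoglobin, glycoprotein receptors for von Willebrand factor or platelet granule chemokines.

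The depth of each library beyond the labelled minimum of 5000000 reads is unknown, since the deposited lists hold peaks and no reads. The H3K27ac lists of Corin held 30029 and 34424 peaks against 17599 and 19995 with DMSO, those of H3K4me2 40042 to 41152 against 30896 to 32299, and those of H3K4me3 11757 to 11883 against 11104 to 11343. Over all tested genes the median difference, Corin minus DMSO, was 445 bp for H3K27ac, 233.5 bp for H3K4me2 and 63.5 bp for H3K4me3. With every list of a mark trimmed by score to the same number of peaks, these medians were 263, 134 and 53.5 bp, so each gene's difference is to be read against its mark's median. Limma called 0 genes for H3K27ac, 22 for H3K4me2 (all higher after Corin) and 0 for H3K4me3, while 2431, 1997 and 763 genes had an unadjusted p under 0.05. These calls rested on few libraries: without Corin replicate 1 or 2 limma called 1081 or 1337 genes for H3K27ac, and without any 1 library none for H3K4me2. No peak in any library was found for 0 of 18 monocytic markers (0%) and 4 of 15 lymphoid markers (26.7%), against 28.9% of all genes. In bulk material more cells with a mark and more mark per cell cannot be told apart.

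Among the 8 genes, both Corin libraries lay above both DMSO libraries for 3 in H3K27ac (NFE2, EPOR, GP1BA), 3 in H3K4me2 (NFE2, EPOR, KLF1) and all 4 with coverage in H3K4me3. Both Corin libraries lay below both DMSO libraries for 0 members in each mark. Of all genes tested, 54.6% were higher without overlap in H3K27ac, 39.5% in H3K4me2 and 25.7% in H3K4me3, and 0.655%, 3.83% and 8.29% were lower. By limma 0 members were called in any mark, against 0%, 0.156% and 0% of all genes called higher and 0% lower throughout, and 1, 3 and 3 members had an unadjusted p under 0.05, against 23.1%, 14.2% and 6.82% of all genes. At matched peak number the members' counts were again 3, 3 and 4, against 35.3%, 31.3% and 24.4% of all genes higher and 3.5%, 7.58% and 9.19% lower. Of the H3K4me2 genes without overlap, 80.5% were then higher, in place of 91.2%. With so few covered genes these counts are a description. An exact permutation test of 2 libraries against 2 cannot give a p below 0.333.

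**Figure D1:**
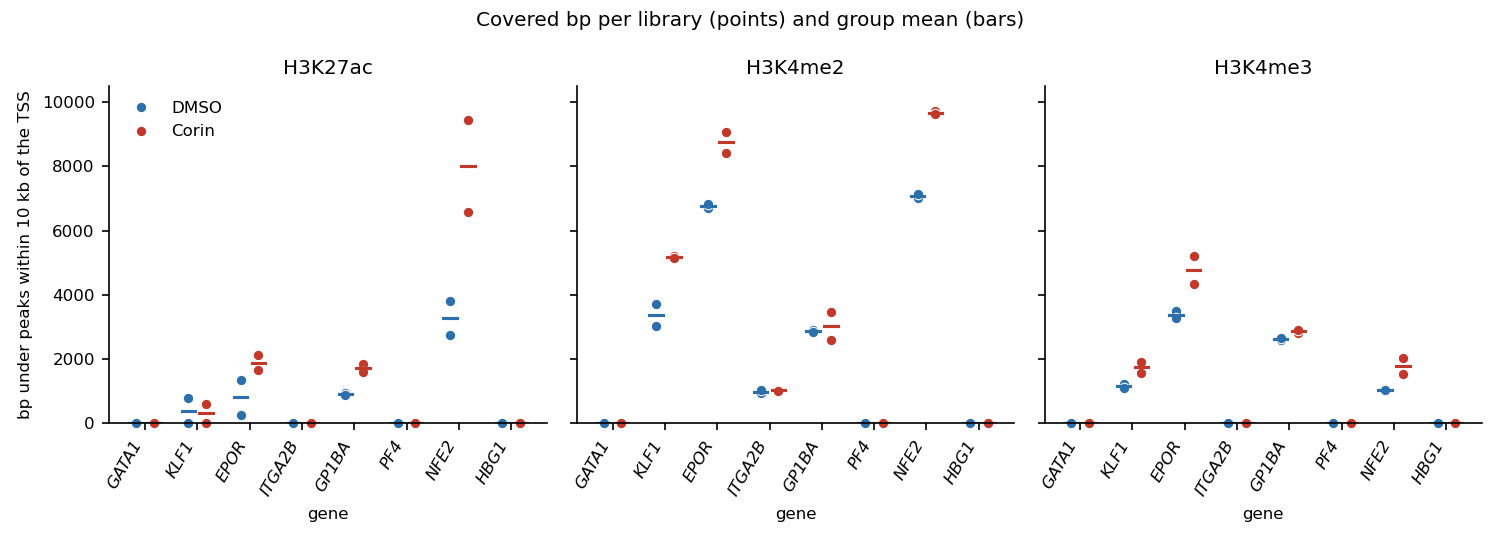
Covered bp within 10 kb of the TSS (vertical axis) of the 8 genes in each library (points; blue DMSO, red Corin) with group means (bars), for H3K27ac, H3K4me2 and H3K4me3. GATA1, PF4 and HBG1 lie at 0 in every panel, and the widest gap is that of NFE2 in H3K27ac, 9455 and 6573 bp with Corin against 2761 and 3804 bp with DMSO.

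Sequences are shown for the promoters and stretches on which these results turn, so that marked and unmarked DNA can be compared. RefSeq promoters (GRCh38.p14, the 250 bases before the start) were matched for 4 of the 8 genes, GATA1, KLF1, EPOR and ITGA2B. Stretches of 300 bases about the centre of a marked region were read from the hg38 genome on the strand of the gene. The 6 motif families, searched on both strands, were AGATAA or TGATAA for GATA factors, CCNCNCCC for the CACCC box of KLF factors (which also takes in GC boxes), TGACTCA or TGAGTCA for NFE2 and the AP-1 factors, CAGATG for the TAL1 E-box, AGGAAG for ETS factors and AAATCA for the core of GFI1 and GFI1B. Of 35116 RefSeq promoters, 14.6% held the GATA motif within 250 bases, 53.4% the CACCC box, 4.2% the NFE2 core, 12.2% the E-box, 28.7% the ETS motif and 11.6% the GFI1 core. Over 300 bases the shares were 16.3%, 56.2%, 4.95%, 14.7%, 33.6% and 13.2%. Capitals mark matches to the GATA, CACCC and NFE2 motifs, and overlapping matches run together. A match describes letters only.

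GATA1 (ENSG00000102145.16, chrX:48786540-48794311, plus strand, 6 exons) encodes the zinc finger factor that defines both lineages. No peak of any mark lay within 10 kb of its TSS in any of the 12 libraries. The nearest peaks were 14.0 to 15.6 kb away, downstream at HDAC6, in all 12 lists. No other protein-coding gene starts within 10 kb of GATA1, so the whole window, gene body included, was empty. Its promoter, shown because neither treatment marked it, held 4 CACCC matches, 1 ETS match and 0 GATA matches in 68.4% G and C (chrX:48786340-48786589, plus strand).
GATA1 promoter: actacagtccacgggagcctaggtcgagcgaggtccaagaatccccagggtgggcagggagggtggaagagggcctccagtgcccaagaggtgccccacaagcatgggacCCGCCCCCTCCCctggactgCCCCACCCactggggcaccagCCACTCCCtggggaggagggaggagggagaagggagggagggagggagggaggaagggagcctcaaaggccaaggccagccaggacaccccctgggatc

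KLF1 (ENSG00000105610.6, chr19:12884422-12887201, minus strand, 3 exons) encodes the factor that switches on adult globin and other red cell genes. Its H3K4me2 coverage was 5208 and 5135 bp in the Corin libraries against 3032 and 3702 bp with DMSO. The groups did not overlap, and the means were 5171.5 ± 51.6 and 3367 ± 473.8 bp (SD, n = 2 each). The difference of 1804.5 bp (limma 95% interval 909.4 to 2699.6 bp) was 1.54-fold and did not pass (limma adjusted p = 0.117). It was 948 bp with peaks at other genes' TSSs left out and 195.5 bp over the gene body with 1 kb before it. Coverage of H3K4me3 was 1921 and 1571 bp with Corin and 1210 and 1099 bp with DMSO, again without overlap. That difference was 591.5 bp (190.3 to 992.7 bp, limma adjusted p = 0.573). In H3K27ac the libraries were uneven within each group, at 613 and 0 bp with Corin and 792 and 0 bp with DMSO, and they overlapped (difference -89.5 bp, -880.1 to 701.1 bp, limma adjusted p = 0.867).

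Most of this coverage belonged to the genes on either side of KLF1. The TSS of GCDH, a mitochondrial dehydrogenase, lies 3959 bp upstream on the other strand, and that of DNASE2, a lysosomal nuclease, 5606 bp downstream. Within 1 kb of KLF1's own TSS there was 0 bp of any mark in all 12 libraries. All H3K4me3 in the window lay within 1 kb of the neighbours' TSSs: a GCDH peak in all 4 libraries and a DNASE2 peak in both Corin libraries and neither DMSO library. In a window of 5 kb either side, which leaves out the DNASE2 start, the H3K4me3 difference was -75.0 bp. The KLF1 promoter, shown as the unmarked start of the gene, held 1 GATA match, TTATCA at bases 185 to 190 (chr19:12887202-12887451, minus strand).
KLF1 promoter: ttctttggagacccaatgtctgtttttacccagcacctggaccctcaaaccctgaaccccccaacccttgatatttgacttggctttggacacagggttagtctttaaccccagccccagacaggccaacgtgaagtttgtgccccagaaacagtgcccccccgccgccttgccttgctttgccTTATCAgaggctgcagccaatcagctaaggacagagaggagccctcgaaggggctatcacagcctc

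The H3K4me2 under both Corin libraries and neither DMSO library came to 1288 bp in the KLF1 window, in 6 stretches. The widest not at a neighbour's TSS ran from 2973 to 3354 bp downstream of the TSS (382 bp, chr19:12883847-12884228), past the 3′ end of KLF1 and before DNASE2. The peaks over it scored above 44.6% and 39.1% of the peaks in their own lists. A narrower stretch of 224 bp lay at 3567 to 3790 bp, where the peak of Corin replicate 2 scored above only 0.3% of its list. Of the H3K27ac lists, that of Corin replicate 1 had a peak at 3120 to 3509 bp, over the same ground, and the other 3 had none there. The 300 bases at the centre of the widest stretch (chr19:12883888-12884187, minus strand) are shown because they took on H3K4me2 peaks under Corin alone. They held 48.3% G and C, 1 NFE2 core (TGAGTCA, bases 278 to 284) and 1 CACCC box (bases 291 to 298).
KLF1 stretch with H3K4me2 after Corin alone: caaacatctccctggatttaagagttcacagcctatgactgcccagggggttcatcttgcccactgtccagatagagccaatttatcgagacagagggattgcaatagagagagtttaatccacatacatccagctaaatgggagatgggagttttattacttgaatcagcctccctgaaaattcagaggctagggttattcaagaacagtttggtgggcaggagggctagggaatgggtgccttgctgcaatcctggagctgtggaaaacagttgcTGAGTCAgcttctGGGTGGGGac

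NFE2 (ENSG00000123405.14, chr12:54292111-54301015, minus strand, 3 exons) encodes the large subunit of the factor NF-E2, which platelet release and globin enhancers need. It was among the most covered genes with DMSO: its mean stood at percentile 98.4 of all genes for both H3K27ac and H3K4me2, and at 61.7 for H3K4me3. H3K27ac covered 9455 and 6573 bp with Corin and 2761 and 3804 bp with DMSO, so each Corin library lay far above both DMSO libraries. The means were 8014 ± 2037.9 and 3282.5 ± 737.5 bp (SD, n = 2 each). The difference was 4731.5 bp (limma 95% interval 1948.2 to 7514.8 bp), in bp at percentile 99.8 of the tested genes, and did not pass (limma adjusted p = 0.124). On the log2 scale with a pseudocount of 500 bp it was 1.163, against a median of 0.495 over all genes. Limma called 436 genes higher, in place of 0, when genes with a mean under 500 bp were left out of the fit. The NFE2 difference was 1 of these (limma adjusted p = 0.0453). It did not pass at matched peak number (4574.5 bp, limma adjusted p = 0.384) or with any 1 library left out (3290.5 to 6172.5 bp, limma adjusted p = 0.105 to 0.603).

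H3K4me2 over NFE2 was 9724 and 9615 bp with Corin against 7019 and 7149 bp with DMSO, with close replicates and no overlap. The difference was 2585.5 bp (1488.2 to 3682.8 bp), or 1.36-fold, at percentile 99.4 of the tested genes (limma adjusted p = 0.0966). H3K4me3 was narrower, at 2029 and 1535 bp with Corin against 1057 and 1027 bp, and again the groups did not overlap. Its difference was 740 bp (259.9 to 1220.1 bp, limma adjusted p = 0.558). Of the 8 genes, NFE2 alone had peaks within 1 kb of its own TSS in all 12 libraries.

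NFE2 shares its promoter with COPZ1, a coat protein subunit of the secretory pathway, which starts 187 bp upstream on the other strand. A stretch of 842 bp, from 57 to 898 bp past the NFE2 TSS (chr12:54300117-54300958), lay under peaks in all 12 libraries. The gap between treatments opened away from that shared start. Inside the gene beyond 1 kb of the TSS, H3K27ac covered 2909 and 2005 bp with Corin and 238 and 605 bp with DMSO, while within 1 kb of both TSSs it covered 1814 bp in each Corin library and 1507 and 1414 bp with DMSO. Upstream and elsewhere in the window, on the COPZ1 side, H3K27ac covered 4358 and 2482 bp against 915 and 1627 bp. Upstream peaks therefore cannot be assigned to NFE2 from position. With peaks within 1 kb of other genes' TSSs left out, the H3K27ac difference was 3495.5 bp, that of H3K4me2 708.5 bp and that of H3K4me3 100 bp. That setting drops whole peaks, so those over NFE2's own start, with their reach into the gene, went too. Inside the gene beyond 1 kb of the TSS, H3K4me2 covered 4290 and 4054 bp with Corin and 2024 and 2530 bp with DMSO. H3K4me3 covered 885 and 308 bp there with Corin and 113 and 0 bp with DMSO.

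Under both Corin libraries and neither DMSO library lay 2266 bp of H3K27ac, 1231 bp of H3K4me2 and 195 bp of H3K4me3 in the NFE2 window. The reverse, both DMSO libraries and neither Corin library, came to 0 bp in each mark. Within the gene the widest such H3K27ac stretch, 432 bp, lay in intron 2 at 6116 to 6547 bp (chr12:54294468-54294899), and H3K4me2 there was under both Corin libraries alone from 6379 to 6561 bp. A further H3K4me2 stretch of 362 bp, at 4957 to 5318 bp, overlapped H3K27ac seen under Corin alone at 5242 to 5344 bp. The Corin H3K4me2 peaks over this further stretch were weak, with scores above 0.9% and 13.4% of their lists. The Corin H3K27ac peaks over the intron 2 stretch scored above 70.3% and 53.8% of their lists, and the H3K4me2 peaks there above 44.3% and 15.5%. The DMSO replicate 2 library had H3K27ac peaks that ended next to both stretches, at 5751 to 6115 bp and 5002 to 5241 bp. The centre of the intron 2 stretch (chr12:54294534-54294833, minus strand) is shown as the widest acetylated ground inside the gene that only Corin libraries had. It held 58.0% G and C, 1 ETS match and 0 matches to the GATA, CACCC or NFE2 motifs.
NFE2 intron 2 stretch with H3K27ac after Corin alone: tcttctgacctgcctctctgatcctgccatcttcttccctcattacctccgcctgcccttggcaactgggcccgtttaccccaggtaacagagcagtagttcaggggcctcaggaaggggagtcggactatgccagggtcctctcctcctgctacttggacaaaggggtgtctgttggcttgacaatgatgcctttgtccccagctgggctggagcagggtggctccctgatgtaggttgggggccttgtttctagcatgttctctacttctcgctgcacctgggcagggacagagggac

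EPOR (ENSG00000187266.14, chr19:11377207-11384342, minus strand, 8 exons) encodes the erythropoietin receptor, the signal on which red cell precursors survive. It was widely marked with DMSO, with its mean at percentile 98.1 of all genes for H3K4me2 and 96.0 for H3K4me3. H3K4me3 covered 5211 and 4339 bp with Corin and 3500 and 3269 bp with DMSO, without overlap. The difference of 1390.5 bp (limma 95% interval 542.9 to 2238.1 bp) was 1.41-fold and did not pass (limma adjusted p = 0.558). In bp it exceeded that of all but 30 tested genes. On the log2 scale with a pseudocount of 500 bp it was 0.437, against a median of 0.045 over all genes. H3K4me2 covered 9082 and 8417 bp against 6713 and 6830 bp, a difference of 1978 bp (827.2 to 3128.8 bp, limma adjusted p = 0.152). Both Corin libraries again stood above both DMSO libraries. That difference was 330 bp with 5 kb windows (limma adjusted p = 0.773) and 1279 bp with peaks at other genes' TSSs left out.

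In H3K27ac, EPOR had 2127 and 1659 bp with Corin against 1356 and 268 bp with DMSO. The DMSO replicates differed by more than the gap to the nearer Corin library, and the limma interval of the 1081 bp difference ran from -24.6 to 2186.6 bp (adjusted p = 0.222). The difference was 537 bp without DMSO replicate 2 and 1625 bp without DMSO replicate 1. None of that acetylation lay within 1 kb of the EPOR TSS. Part of it, 587 and 969 bp with Corin and 622 and 0 bp with DMSO, sat at SWSAP1, a DNA repair gene whose TSS is 9676 bp downstream on the other strand. With peaks at other genes' TSSs left out the difference was 448 bp.

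The EPOR start itself differed by mark. H3K4me2 covered 1266 and 1196 bp within 1 kb of the TSS with Corin and 1229 and 1159 bp with DMSO, so the groups overlapped. H3K4me3 covered 998 bp there in each Corin library and 0 and 11 bp with DMSO. The H3K4me3 peaks began 3 bp past the TSS in both Corin libraries, and at 1463 and 990 bp in the DMSO libraries. In the list of Corin replicate 2 this peak was a weak one, with a score above that of 22.9% of its list. The single long peak of Corin replicate 1 scored above 90.4%. The DMSO replicate 2 peak at 990 to 1406 bp, of which 11 bp fell within 1 kb, was of like rank, above 16.9% of its list. The promoter just upstream (chr19:11384315-11384564, minus strand) is shown as the edge which H3K4me3 reached. It held 1 GATA match (TTATCT, bases 173 to 178), 2 overlapping CACCC matches that read as a GC box, and 1 E-box.
EPOR promoter: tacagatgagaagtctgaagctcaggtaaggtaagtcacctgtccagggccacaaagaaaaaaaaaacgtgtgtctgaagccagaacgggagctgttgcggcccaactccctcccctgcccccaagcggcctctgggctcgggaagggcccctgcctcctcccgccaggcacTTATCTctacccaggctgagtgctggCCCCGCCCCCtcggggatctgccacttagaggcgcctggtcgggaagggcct

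Within EPOR, 230 bp over exons 5 and 6, from 3241 to 3470 bp past the TSS, lay under peaks of all 3 marks in all 12 libraries (chr19:11380872-11381101). The 300 bases about it (chr19:11380837-11381136, minus strand) are shown as the constant part of the gene. They were rich in G and C (69.7%), with 27 CpG, and matched none of the 6 motif families.
EPOR stretch in all 12 lists: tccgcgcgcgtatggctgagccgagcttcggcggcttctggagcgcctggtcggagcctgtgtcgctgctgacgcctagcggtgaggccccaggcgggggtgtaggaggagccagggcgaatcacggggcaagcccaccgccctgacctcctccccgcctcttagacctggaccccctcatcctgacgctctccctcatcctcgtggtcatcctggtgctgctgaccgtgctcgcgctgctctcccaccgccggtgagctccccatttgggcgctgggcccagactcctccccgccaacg

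**Figure D2:**
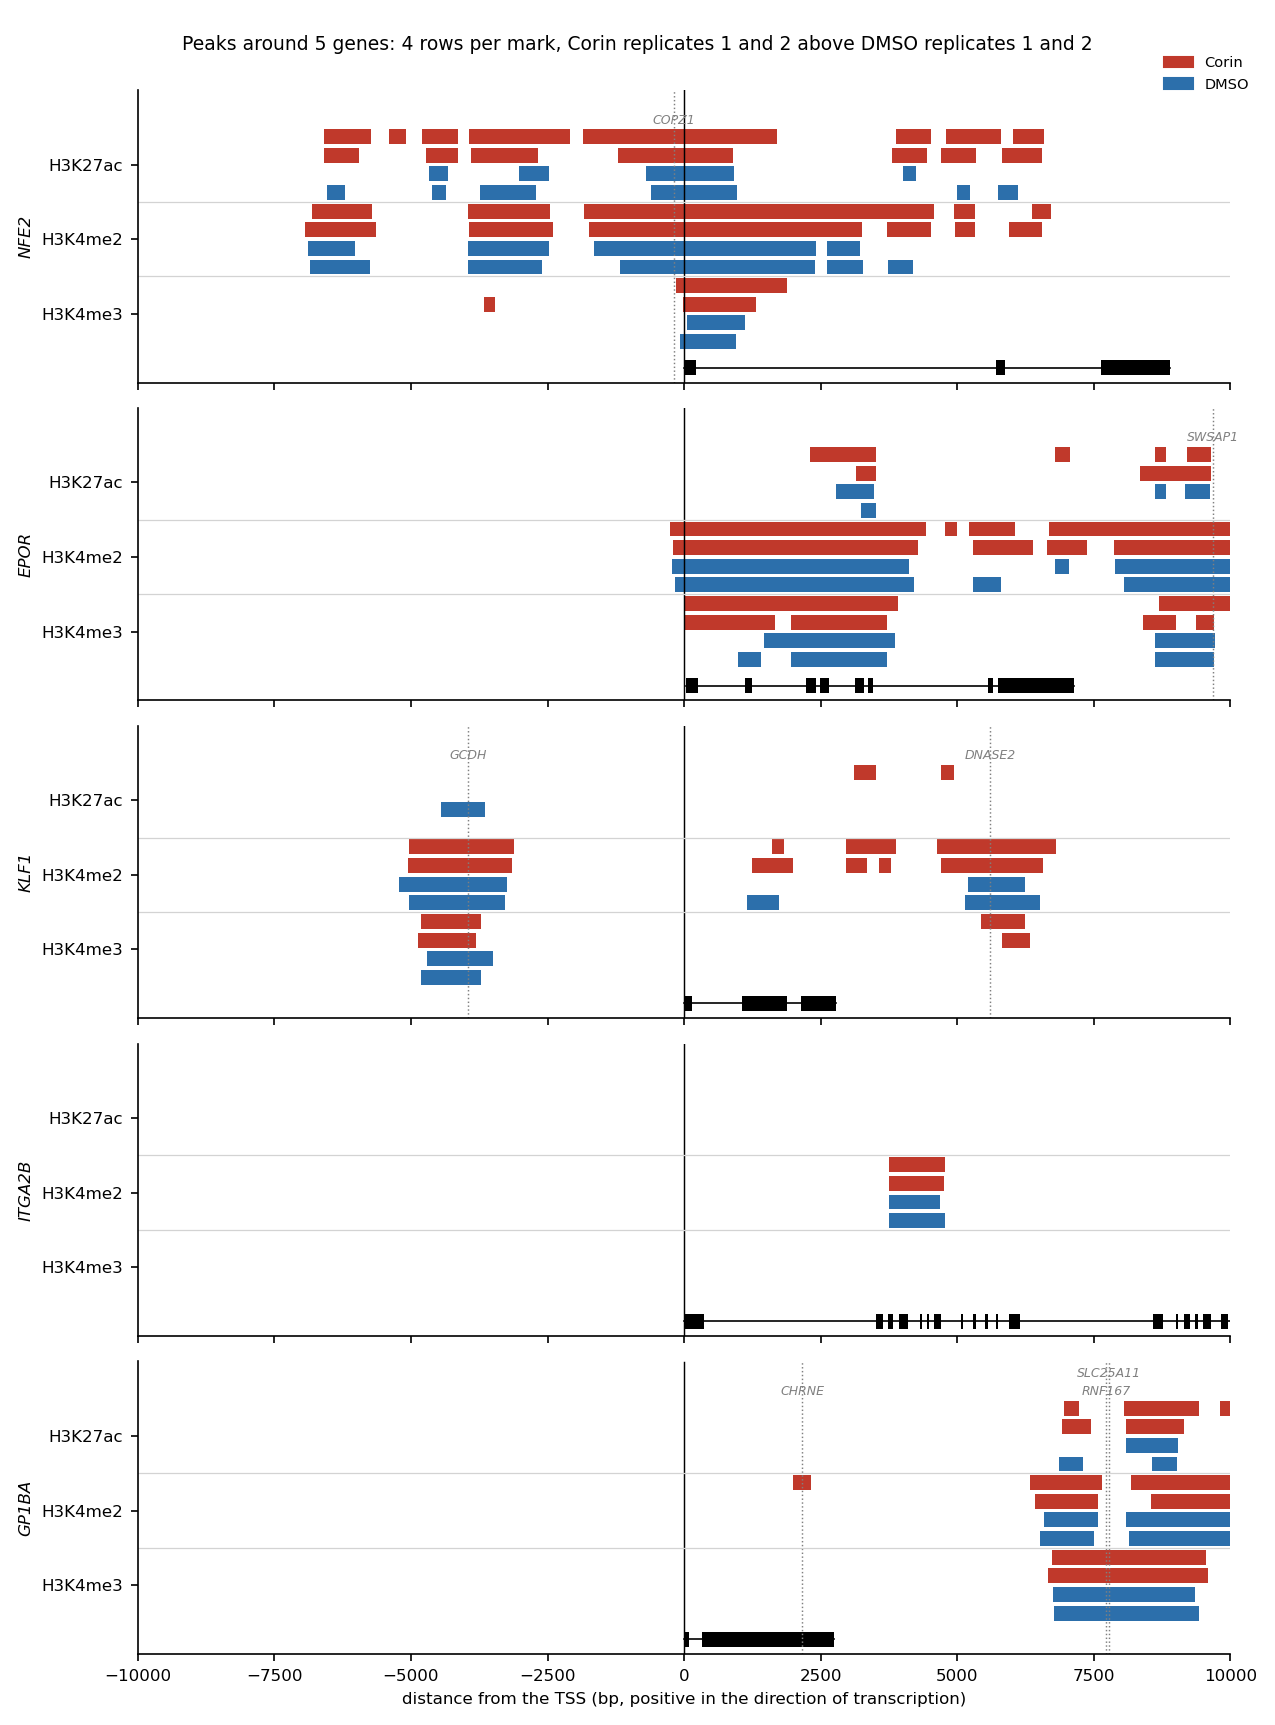
Called peaks around NFE2, EPOR, KLF1, ITGA2B and GP1BA, with distance from the TSS in bp on the horizontal axis (positive in the direction of transcription), 4 rows per mark (Corin replicates 1 and 2 in red, DMSO replicates 1 and 2 in blue), exons as black boxes and the TSSs of other genes as dotted lines. H3K4me3 reaches the EPOR TSS in the red rows alone, and KLF1, ITGA2B and GP1BA have no peak over their TSS.

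ITGA2B (ENSG00000005961.19, chr17:44372180-44389649, minus strand, 30 exons) encodes integrin alpha-IIb, a chain of the platelet fibrinogen receptor and an early megakaryocyte marker. Its window held a single H3K4me2 peak, of 1040 and 1007 bp with Corin and 933 and 1025 bp with DMSO. The libraries overlapped, and the difference of 44.5 bp (limma 95% interval -400.6 to 489.6 bp) was below the median of all genes (limma adjusted p = 0.947). H3K27ac and H3K4me3 had no peak in the window in any library. Their nearest peaks were 28.0 to 41.7 kb and 25.8 to 26.1 kb away.

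The ITGA2B peak did not lie at the promoter. It ran from 3744 to 4783 bp past the TSS in Corin replicate 1, and 925 bp, from exon 3 to exon 7, were shared by all 4 H3K4me2 libraries. Both sequences are shown for contrast: the unmarked promoter (chr17:44389650-44389899, minus strand) had 48.8% G and C, 2 CpG and 1 CACCC match, and the centre of the marked stretch (chr17:44385283-44385582, minus strand) had 69.0% G and C, 27 CpG, 6 CACCC matches, which read as GC boxes, and 1 GFI1 core.
ITGA2B promoter: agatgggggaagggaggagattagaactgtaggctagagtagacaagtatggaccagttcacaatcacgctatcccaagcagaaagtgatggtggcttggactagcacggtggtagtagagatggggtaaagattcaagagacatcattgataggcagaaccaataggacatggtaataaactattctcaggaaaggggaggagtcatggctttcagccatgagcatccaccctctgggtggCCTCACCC
ITGA2B stretch in all 4 H3K4me2 lists: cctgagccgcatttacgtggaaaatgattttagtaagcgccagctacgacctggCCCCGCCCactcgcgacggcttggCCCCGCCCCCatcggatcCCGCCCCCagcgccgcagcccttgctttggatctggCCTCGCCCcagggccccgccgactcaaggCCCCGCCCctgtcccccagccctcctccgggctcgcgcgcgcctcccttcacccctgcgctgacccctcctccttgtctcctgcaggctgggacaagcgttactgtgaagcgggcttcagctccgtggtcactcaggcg

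GP1BA (ENSG00000185245.9, chr17:4932277-4935023, plus strand, 2 exons) encodes the platelet receptor chain that binds von Willebrand factor. H3K27ac covered 1833 and 1592 bp with Corin and 948 and 894 bp with DMSO, without overlap, a difference of 791.5 bp (limma 95% interval -8.0 to 1591.0 bp, adjusted p = 0.218). That difference was 294 bp at matched peak number (limma adjusted p = 0.786) and 2559.5 bp with 20 kb windows (limma adjusted p = 0.108). H3K4me3 covered 2819 and 2917 bp against 2602 and 2641 bp, a difference of 246.5 bp (-115.9 to 608.9 bp, limma adjusted p = 0.864). In H3K4me2 the libraries overlapped, at 3456 and 2608 bp against 2907 and 2846 bp. All 3 differences thus had intervals that included 0.

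Little of this coverage touched GP1BA. Within 1 kb of its own TSS there was 0 bp in all 12 libraries, and the peaks clustered 6330 bp and more downstream, around the TSSs of the ubiquitin ligase gene RNF167 (7731 bp) and the mitochondrial carrier gene SLC25A11 (7776 bp). The 1 exception was an H3K4me2 peak at 2000 to 2323 bp in Corin replicate 1. It lay inside exon 2 of GP1BA and over the TSS of CHRNE, an acetylcholine receptor subunit gene that starts there (2161 bp) on the other strand. A stretch of 455 bp, from 8566 to 9020 bp, was under peaks in all 12 libraries. With peaks at other genes' TSSs left out, the H3K27ac difference was 94.5 bp.

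PF4 (ENSG00000163737.5, chr4:73980811-73982027, minus strand, 3 exons) encodes platelet factor 4, a chemokine of platelet granules. Neither PF4 nor PPBP, the neighbouring platelet chemokine gene 6163 bp upstream, had a peak in any of the 12 libraries. The nearest peaks to PF4 were 56.5 to 176.2 kb away. They lay at CXCL3 and CXCL2, or 43416 to 44026 bp from the nearest gene start, that of MTHFD2L. HBG1 (ENSG00000213934.9, chr11:5248269-5249857, minus strand, 3 exons) encodes fetal gamma-globin and is a near-identical copy of HBG2, whose reads an aligner can fail to place; this was not tested. The whole stretch holding the 5 beta-type globin genes with 10 kb either side (chr11:5215464-5515652, 300189 bp) had a peak in 0 of 12 libraries, so single-copy sequence around HBG1, that of HBD (delta-globin, 6200 bp downstream) included, was empty too. Its nearest peak of any mark was 374.6 to 856.2 kb away, among TRIM genes. An empty window says that no peak passed the authors' threshold, not that the mark was absent.

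**Figure D3:**
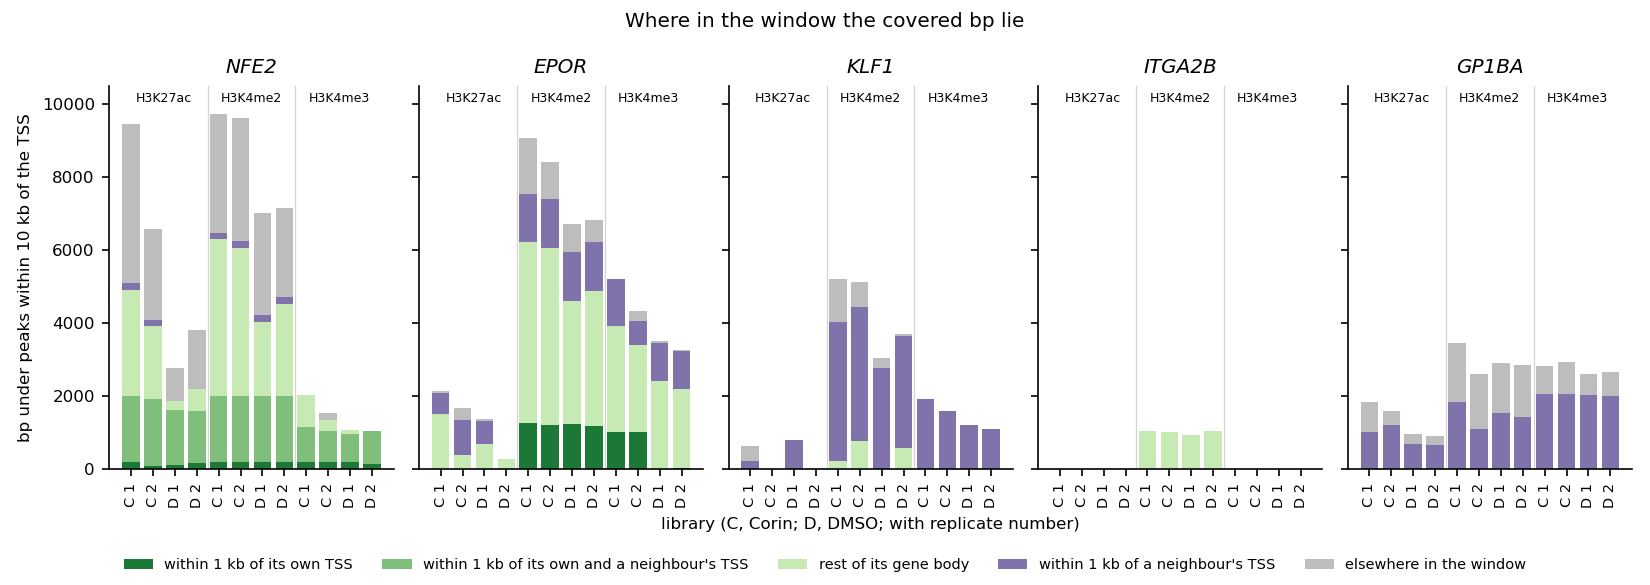
Covered bp in the window of NFE2, EPOR, KLF1, ITGA2B and GP1BA in each library (C, Corin; D, DMSO), split by place: within 1 kb of the gene's own TSS, of both its own and another gene's TSS, in the rest of the gene body, within 1 kb of another gene's TSS, or elsewhere. KLF1 and GP1BA bars hold no segment at their own TSS, and the gene body segment of NFE2 in H3K27ac is 2909 and 2005 bp with Corin against 238 and 605 bp with DMSO.

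The levels could be ordered within a mark, since every window had the same length. With DMSO, H3K4me2 coverage ran from NFE2 (7084 ± 91.9 bp, SD, n = 2) through EPOR (6771.5 ± 82.7 bp), KLF1 (3367 ± 473.8 bp) and GP1BA (2876.5 ± 43.1 bp) to ITGA2B (979 ± 65.1 bp), and the libraries of neighbouring genes in this order did not overlap. With DMSO, H3K27ac coverage was highest at NFE2 (3282.5 ± 737.5 bp). The spread of the EPOR libraries (812 ± 769.3 bp) took in both GP1BA libraries (921 ± 38.2 bp) and overlapped KLF1 (396 ± 560.0 bp). H3K4me3 was widest at EPOR (3384.5 ± 163.3 bp), then GP1BA (2621.5 ± 27.6 bp), KLF1 (1154.5 ± 78.5 bp) and NFE2 (1042 ± 21.2 bp), without overlap between neighbours in the order. NFE2 thus stood first in H3K27ac and H3K4me2 and last of the 4 covered genes in H3K4me3.

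**Figure D4:**
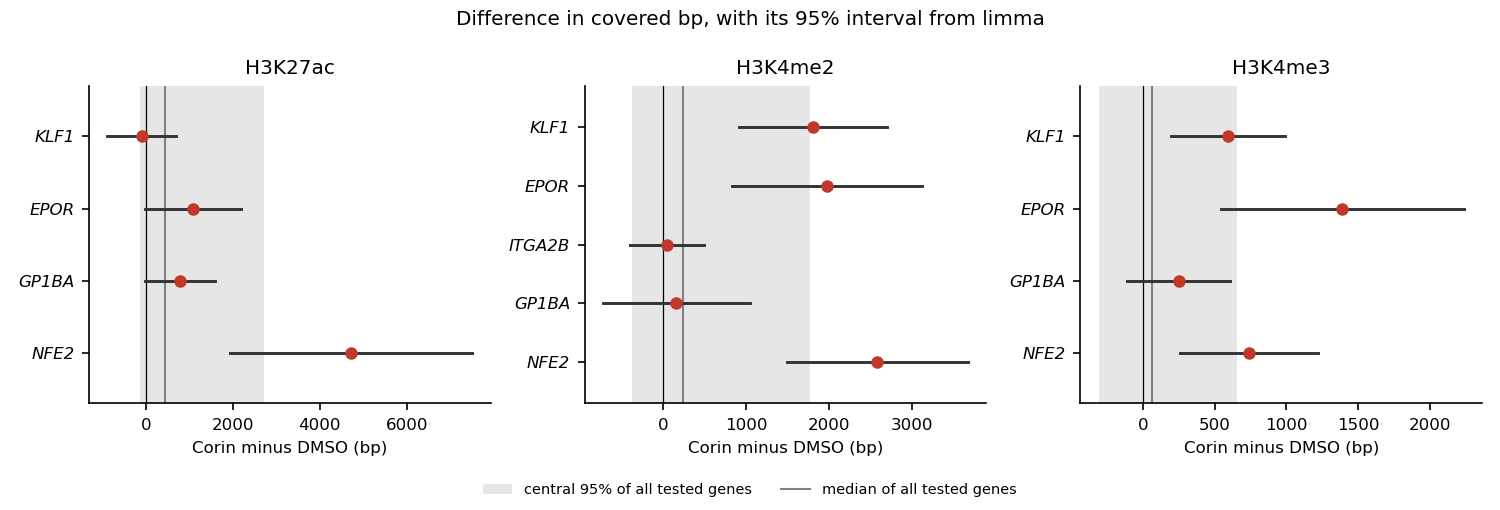
Difference in covered bp, Corin minus DMSO (points), with limma's 95% interval (lines), for the genes with coverage in each mark; the grey band is the central 95% of all tested genes, the grey line their median and the black line 0. NFE2 lies beyond the band in all 3 marks, EPOR in H3K4me2 and H3K4me3 and KLF1 just beyond it in H3K4me2 (1804.5 bp), while ITGA2B and GP1BA lie inside it.

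The genes with the most similar pattern over the 12 libraries, by root mean square difference in covered bp, were named for each covered gene. For NFE2 they were KIAA0930 (646.4 bp) and CHCT1 (683.4 bp), with H3K27ac differences of 4431.5 and 4943 bp. EPOR was closest to RPL19 (597.8 bp) and NPRL2 (638.6 bp), GP1BA to SETD2 (234.7 bp) and EIF2B5 (265.4 bp), and ITGA2B to AK1 and ARAP2 (20.8 bp each). KLF1 was closest to CCND3 and TAF8 (378.7 bp each), whose values were identical. A gene with little coverage, such as ITGA2B, has small differences of this kind by construction.

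The wider programmes of both lineages were described from 3 lists that hold none of the 8 genes: 47 erythroid genes (globins, membrane, blood group and haem enzymes), 30 megakaryocyte genes (platelet receptors and granule proteins) and 24 lineage factors. No peak of any mark lay within 10 kb of 20 erythroid genes (42.6%) and 10 megakaryocyte genes (33.3%), against 28.9% of all genes. The empty erythroid genes included ALAS2 (the erythroid enzyme of haem synthesis), AHSP (a chaperone of alpha-globin), SLC4A1 (the anion exchanger of the red cell membrane) and HBB. Among the empty megakaryocyte genes were PPBP, VWF (von Willebrand factor), SELP (P-selectin) and CLEC1B (a platelet receptor). These examples were chosen after their values were seen. By contrast 1 of 24 lineage factors was empty, RUNX1. With windows around every TSS of its basic transcripts RUNX1 was covered in all 12 libraries (8691 and 7444 bp of H3K27ac with Corin, 3841 and 3146 bp with DMSO), and SOX6 was the 1 empty factor.

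With DMSO, H3K27ac lay in both libraries within 10 kb of 23.4% of the erythroid, 10% of the megakaryocyte and 62.5% of the factor genes, against 32.7% of all genes. For H3K4me2 the shares were 55.3%, 53.3% and 95.8%, against 65.1%. For H3K4me3 they were 42.6%, 13.3% and 83.3%, against 52.4%. Coverage in the wider lists was not split by place, so it can belong to neighbouring genes. Differences between these shares were not tested, and the erythroid list counts 1 set of peaks 3 times, at HBA1, HBA2 and HBQ1, whose windows gave the same values. The monocytic markers, 18 in all, had shares of 55.6%, 83.3% and 61.1%, and the 15 lymphoid markers 6.67%, 60% and 13.3%, in the order H3K27ac, H3K4me2 and H3K4me3. GFI1B, the LSD1 partner itself, had 1719 and 1290 bp of H3K4me2 with Corin and 1113 and 1479 bp with DMSO, which overlapped, and 745 and 485 bp of H3K27ac against 0 and 209 bp.

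**Figure D5:**
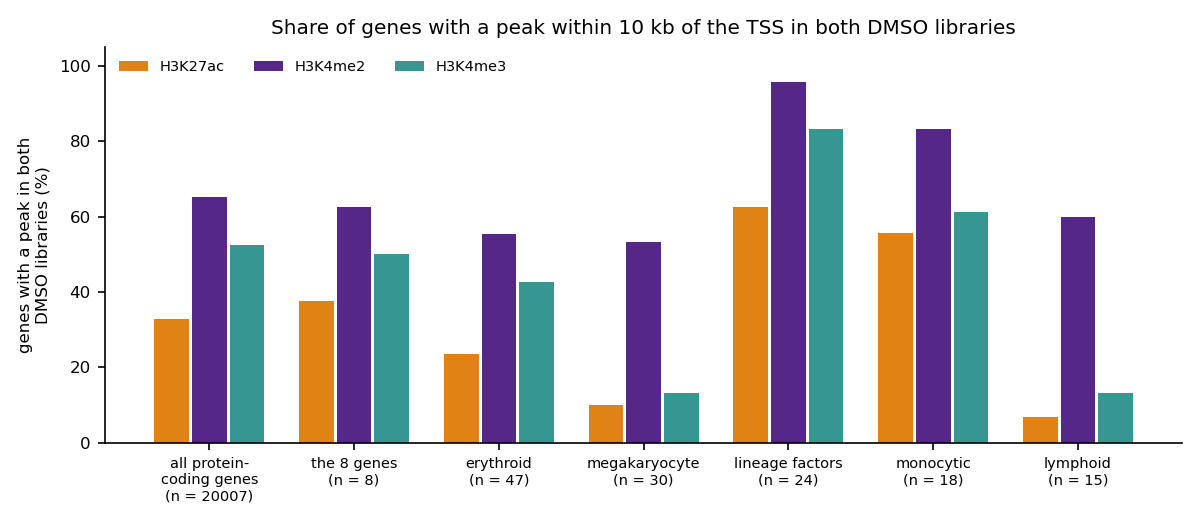
Share of genes with a peak within 10 kb of the TSS in both DMSO libraries (vertical axis, percent) for all protein-coding genes, the 8 genes, the 3 wider lineage lists and the monocytic and lymphoid marker lists, by mark. H3K4me3 reaches 13.3% of the megakaryocyte genes, 42.6% of the erythroid genes and 83.3% of the lineage factors.

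By limma 0 genes of the 3 wider lineage lists were called in either direction in any mark. Groups were higher without overlap for 9 of 18 tested erythroid genes in H3K27ac, 10 of 27 in H3K4me2 and 6 of 23 in H3K4me3 (50%, 37% and 26.1%, against 54.6%, 39.5% and 25.7% of all genes), and lower for 1 in each mark. The megakaryocyte counts were 2 of 6, 8 of 19 and 1 of 5 higher (33.3%, 42.1% and 20%), with 1 lower in H3K4me2 alone. For the factors they were 14 of 20, 11 of 23 and 6 of 20 higher (70%, 47.8% and 30%), with 0, 1 and 3 lower. The median differences in H3K27ac, H3K4me2 and H3K4me3 were 301.8, 199.5 and -5.0 bp for the erythroid list, 222.2, 200.5 and -0.5 bp for the megakaryocyte list, and 998.5, 244 and -29.2 bp for the factors, against 445, 233.5 and 63.5 bp over all genes. The unadjusted p was under 0.05 for 6, 2 and 2 erythroid genes, 2, 3 and 0 megakaryocyte genes and 9, 7 and 3 factors, against 23.1%, 14.2% and 6.82% of all genes tested.

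Among erythroid genes the widest H3K27ac difference was at ALAD, a haem synthesis gene. It had 4084 and 4119 bp with Corin and 1421 and 2229 bp with DMSO, a difference of 2276.5 bp (limma adjusted p = 0.119). PPOX had 2041 and 472 bp against 0 and 0 bp. These enzymes act in haem synthesis in every cell type, not in red cells alone. In H3K4me2, BLVRB, a reductase of haem breakdown, had 4697 and 4232 bp against 2380 and 2544 bp (limma adjusted p = 0.0929), followed by CA2, a carbonic anhydrase, and CPOX, another haem enzyme. In the other direction RHD, the Rh blood group gene, had 0 and 0 bp of H3K27ac with Corin and 206 and 496 bp with DMSO, and PPOX had 2997 and 2609 bp of H3K4me2 against 3329 and 3140 bp.

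The megakaryocyte list was led by NBEAL2, needed for platelet alpha-granules, with 3248 and 3450 bp of H3K27ac against 784 and 708 bp, a difference of 2603 bp (limma adjusted p = 0.115). MPIG6B, an inhibitory platelet receptor, had 1002 and 1650 bp of H3K27ac against 205 and 438 bp. Both were also higher without overlap in H3K4me2, as was the growth factor gene ANGPT1. TREML1, a receptor of platelet granules, was lower in H3K4me2, at 1152 and 1296 bp against 1470 and 1519 bp.

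Of the lineage factors, the repressor gene ZBTB7A had 9027 and 8513 bp of H3K27ac with Corin and 3979 and 5071 bp with DMSO, a difference of 4245 bp (limma adjusted p = 0.119). MAFG, a small MAF partner of NFE2, had 7482 and 7393 bp against 1577 and 5077 bp. LDB1, the bridging partner of GATA1 and TAL1, had 5567 and 4637 bp against 1554 and 2089 bp (difference 3280.5 bp, limma adjusted p = 0.115). All 3 had groups without overlap. In H3K4me2 the widest differences were at FOXO3, NFE2L2 and LMO2, and LMO2, a partner of TAL1, had 10246 and 9127 bp with Corin against 7969 and 7908 bp. In H3K4me3 LYL1, a relative of TAL1, had 5044 and 5876 bp against 2977 and 3916 bp (limma adjusted p = 0.501). ETV6 was lower in H3K4me2, at 3831 and 3204 bp against 3957 and 4580 bp, and KLF3, JAK2 and NFE2L2 were lower in H3K4me3.

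Against these lists, ITGAM, a monocyte integrin, was the 1 named gene that passed in the marker lists: it had 3039 and 2536 bp of H3K4me2 with Corin and 0 and 0 bp with DMSO (limma adjusted p = 0.0381). This call was lost at matched peak number, with scores of at least 100, on the log2 scale, without peaks at other genes' TSSs and with any 1 library left out, where limma called 0 genes in H3K4me2. It was also lost with 5 kb windows, over gene bodies and without the filter on low values. Of the monocytic markers, 13 of 15 in H3K27ac, 12 of 17 in H3K4me2 and 8 of 12 in H3K4me3 were higher without overlap (86.7%, 70.6% and 66.7%), with median differences of 1015.5, 786 and 579.5 bp, and 1, CEBPB in H3K4me3, was lower (2443 and 2377 bp against 2711 and 2677 bp). Of the lymphoid markers, 2 of 2, 5 of 11 and 1 of 4 were higher (100%, 45.5% and 25%), with medians of 2494.8, 398.5 and 264 bp, and 0 were lower. Of all genes 54.6%, 39.5% and 25.7% were higher. That the lineages differ from each other in their response was not tested.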

How the data were processed

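Peak lists of 12 CUT&RUN libraries of MOLM-13 cells were used, 1 list per library. Per the submitters' processing notes, Trim Galore, Bowtie2, Picard and MACS2 were used, with the builds GRCh38 and hg38. Versions, calling thresholds and the control are not given in the sources used here. Each deposited list gives chromosome, start, end and a score set by the authors, a whole number of at least 50 whose definition is not stated; it was used for no more than ordering or filtering the peaks of 1 list. The lists hold 292523 peaks, 0 of them beyond the end of an hg38 chromosome, and 0 pairs of lists were identical. Sequencing was paired-end with 150 bp reads, per the labels' protocols.

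The TSS was the 5′ end of the gene in GENCODE release 44. For each mark, covered bp of all genes with coverage in at least 1 library were fitted with limma 3.58.1 (R 4.3.3, variance trend, Benjamini-Hochberg adjustment over 10528, 14073 and 11188 genes), with no covariate. The fit was tested on simulated data with independent noise and no shift common to all genes. That setting differs from these libraries, so the test cannot vouch for the calls here. Called means adjusted p under 0.05, and without overlap means both Corin libraries above, or below, both DMSO libraries. Python 3.11.15 with pandas 2.3.3 summed coverage and matched motifs. The labels do not say whether replicates were separate cultures, so p-values measure only the spread between these libraries, which may be technical. Windows of neighbouring genes overlap.

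Named genes were the 8 genes, the genes with a symbol that start inside their windows, for each wider list and mark up to 3 genes per direction (called genes first, then the largest differences without overlap), and the 2 genes most like each covered gene. GFI1B and the empty genes named as examples stand outside this rule. A gene that met the rule is not reported here. The 8 genes and the lists were chosen with earlier results of these data known. Alternatives were other windows (5 and 20 kb, gene body, every TSS), a matched peak number, a score of at least 100, peaks at other genes' TSSs left out, log2 with a pseudocount of 500 bp, other filters, a replicate block and leaving out each library.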

Additional observations from a re-analysis of the deposited data

How the results depend on the processing

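The files hold called peaks only, so a difference in covered bp cannot be told apart from one in depth or threshold, and 2 libraries per group limit the precision. How many genes limma called depended on the setting, and the cause was not tested. For H3K27ac, in place of 0 genes, it called 184 higher with 20 kb windows, 25 without the filter, 436 among genes with a mean of at least 500 bp and 1432 with a replicate block, with 0 to 1337 when 1 library was left out. Lower calls were 1 without the filter and 0 to 3 with 1 library left out. For H3K4me2, in place of 22, it called 0 at matched number, with scores of at least 100, over gene bodies, without peaks at other TSSs and on the log2 scale, 2 with 5 kb, 212 with 20 kb, 57 with a mean of at least 500 bp and 650 with the replicate block, and 0 with 1 library left out. Lower calls were 1 without the filter and 1 with the replicate block. For H3K4me3 it called 13 higher and 4 lower without the filter and 7 higher with the replicate block.

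The count of the 8 genes higher without overlap in H3K27ac was 1 in place of 3 with 5 kb windows, over gene bodies and without peaks at other TSSs, with 3 to 3 when 1 library was left out and 0 to 1 lower. In H3K4me2 it was 2 in place of 3 over gene bodies and without peaks at other TSSs, and ranged from 3 to 5 with 1 library left out, reaching 5 without Corin replicate 2, and 0 to 1 were lower. In H3K4me3 it was 2 with 5 kb and over gene bodies and 1 without peaks at other TSSs, in place of 4. With 20 kb 1 gene was lower. The shares of all genes without overlap at these settings are not given here. A change in these counts can therefore not be read as particular to the 8 genes. The H3K4me3 difference of KLF1 was -75.0 bp with 5 kb windows in place of 591.5 bp. NFE2 stayed higher after Corin in all 15 alternatives in each mark. Its H3K27ac difference was called by limma among genes with a mean of at least 500 bp (adjusted p = 0.0453) and with the replicate block (0.00182), and with the block H3K4me2 was called at NFE2 (0.0196) and KLF1 (0.0280). Libraries with the same number deviated together from their group means (correlations 0.286, 0.309 and 0.227 over genes), but with 2 pairs per mark the labels give a shared number only. A lone library in a group was assumed to vary like the other group. On the log2 scale the median difference of all genes was 0.50, 0.13 and 0.04 for H3K27ac, H3K4me2 and H3K4me3.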
